A study of Mus musculus with 12 samples.

Results

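Iron handling and metallothionein genes are described here as 10 genes of a table of 29462: the metallothioneins Mt1 and Mt2, the ferritin chains Fth1 and Ftl1, the transferrin receptor Tfrc, the metal transporters Slc11a2, Slc39a14 and Slc40a1, and the iron sensors Aco1 and Ireb2. They were chosen by symbol, with the row of the highest mean per symbol, and each symbol stood on 1 row. RNA was sequenced from primary aortic smooth muscle cells of C57BL/6J mice (WT, 6 libraries) and of mice with a global knockout of cystathionine gamma-lyase (KO, 6 libraries). The enzyme (CSE, gene symbol Cth) produces hydrogen sulfide. Cells of both genotypes had 24 h of 1 uM angiotensin II before RNA was taken, and untreated cells were not analysed here. Nothing in the labels says that the 6 libraries of a genotype are separate animals or cultures, so p-values reflect the spread between libraries, which may be technical only.

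Cells take up transferrin-bound iron through the transferrin receptor, move it out of endosomes through Slc11a2 (DMT1), take up unbound iron through Slc39a14 (ZIP14), store it in shells of ferritin heavy and light chains, and release it through Slc40a1 (ferroportin). Aco1 and Ireb2 encode the iron regulatory proteins, which bind stem-loops called iron-responsive elements when iron is scarce. Binding in a 5′ untranslated region blocks translation, and binding in the 3′ untranslated region of Tfrc protects its RNA from decay. Metallothioneins are small cysteine-rich proteins that bind zinc and copper, and their genes are switched on through metal response elements by the zinc-sensing factor Mtf1.

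The values are FPKM, fragments counted per length of gene model and per mapped fragments, which may be compared between genes because they are per length. The sum over genes was 255538 to 281432 FPKM per library, with an unknown depth in reads. KO replicate 6 had the lowest sum, 255538, and the other libraries had 274174 to 281432. Positions of single libraries against the WT range are given below in FPKM as deposited. Those near an edge of that range can change with scaling. Cth averaged 0.0233 ± 0.0288 FPKM (WT) and 0.005 ± 0.00837 (KO; SD, n = 6 each), so near 0 in both that it does not check the labels. Of 8 contractile smooth muscle markers only Acta2 and Smtn reached 1 FPKM in the mean of a genotype, and Myh11, the defining myosin, was at most 0.03 FPKM in any library. KO replicates 5 and 6 stood apart from the other KO libraries. Pairs of libraries correlated across genes at 0.992 to 0.995 within WT, at 0.993 to 0.995 within the first 4 KO replicates, and at 0.947 to 0.960 when 1 of those was set against KO replicate 5 or 6. Xist was at most 0.04 FPKM in WT and 0.31 to 3.53 in KO, while the Y-linked gene Ddx3y was present in both genotypes, at 9.87 to 11.81 FPKM in WT and 3.49 to 6.78 in KO. Results are given with all 6 KO libraries and with KO replicates 1 to 4 only, a choice made with earlier results of these data known.

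Of the 10 genes, 9 had at least 1 FPKM in at least 6 libraries and were tested with limma on log2(FPKM + 1), with p-values adjusted over all 11831 genes tested. Fth1, Slc11a2 and Slc39a14 rose in KO and Ftl1 fell, while Mt1, Mt2, Tfrc, Ireb2 and Aco1 did not pass an adjusted p of 0.05. These 4 of 9 compare with 63.5% of all genes tested, 32.6% higher and 30.9% lower in KO. In 0 of the 9 did the 6 KO values lie wholly on 1 side of the 6 WT values, which they did in 46.4% of all genes tested. Both were counted in FPKM as deposited and not again after scaling to a common sum. Using KO replicates 1 to 4 only, 7 members were called, where the share of all genes was 77.1% (39.9% higher, 37.1% lower): Mt1 and Mt2 were then higher too, and Tfrc lower. The shares of members called lie near or below those of all genes, so the counts say nothing particular about these genes, and the values below describe how each gene sat in the 12 libraries. In bulk RNA, fewer cells of a type and less RNA per cell cannot be told apart.

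**Figure D1:**
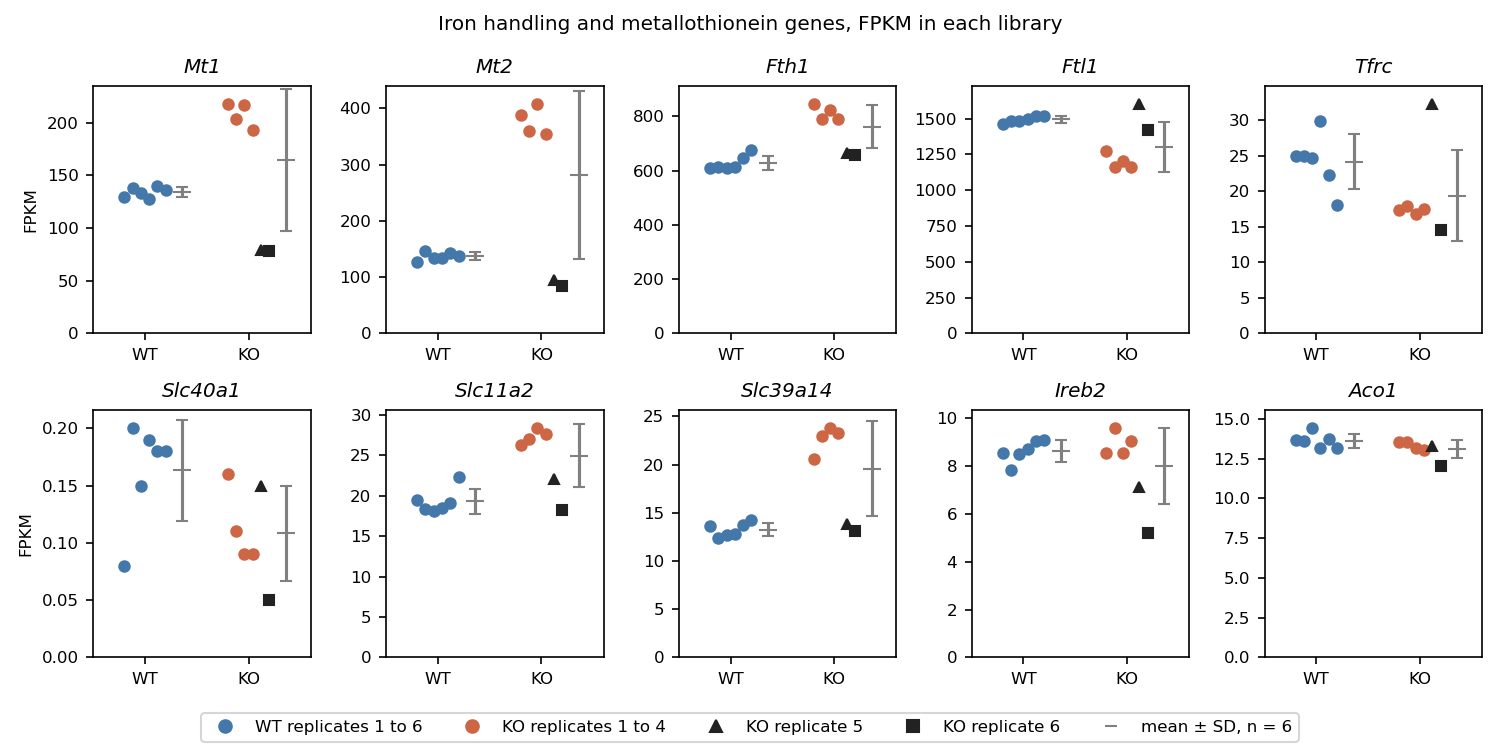
FPKM of the 10 genes in each of the 12 libraries, 1 panel per gene, with WT and KO on the x axis, FPKM from 0 on the y axis, and grey marks for the mean ± SD of 6 libraries. Mt1 and Mt2 in KO replicates 1 to 4 lie above all WT points and in KO replicates 5 and 6 below them, and KO replicate 5 alone lifts Tfrc above WT, at 32.24 FPKM.

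The metallothioneins had the widest relative spread of the 10 genes within KO, with coefficients of variation of 53.2% for Mt2 and 41.0% for Mt1 against 5.20% and 3.64% within WT. Mt2 was at 127.13, 147.36, 133.23, 134.27, 142.13 and 138.17 FPKM in WT replicates 1 to 6. KO replicates 1 to 6 held 388.31, 360.09, 407.34, 354.35, 95.33 and 84.01. KO replicates 1 to 4 were all above the highest WT library and KO replicates 5 and 6 both below the lowest. The genotype means were 137 ± 7.13 FPKM in WT and 282 ± 149.9 in KO (SD, n = 6 each), and the difference of 0.77 ± 0.39 SE in log2(FPKM + 1) did not pass (limma adjusted p = 0.098, 95% interval -0.07 to 1.60). It passed without KO replicate 5 (adjusted p = 0.020) or without KO replicate 6 (0.011). With both left out, Mt2 was 2.75-fold higher in KO (log2 difference 1.45 ± 0.05 SE, adjusted p = 3.6e-11).

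Mt1 followed the same order with a smaller span. It was at 128.98, 137.93, 132.89, 127.95, 140.15 and 135.67 FPKM in WT, and its KO values were 217.32, 203.11, 217.1, 192.75, 78.73 and 77.87. As for Mt2, no KO value fell inside the WT range: 4 lay above it and 2 below. The means, 134 ± 4.88 FPKM in WT and 164 ± 67.4 in KO, differed by 0.16 ± 0.26 SE (adjusted p = 0.61, interval -0.40 to 0.73), and KO replicates 1 to 4 alone were 1.55-fold above WT (0.63 ± 0.04 SE, adjusted p = 1.9e-08). KO replicates 5 and 6 averaged 78.3 FPKM for Mt1 and 89.7 for Mt2, and the WT means were 1.71- and 1.53-fold higher. An order with KO replicates 1 to 4 above all WT libraries and KO replicates 5 and 6 below all of them was found in 259 of the 11831 tested genes (2.19%), these 2 among them.

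Within a library, the ratio of Mt1 to Mt2 does not depend on how the library was scaled. It was 0.978 ± 0.0289 in WT, close to equal levels, and lay between 0.936 and 1.01 in the 6 libraries. In KO replicates 1 to 4 it was 0.560, 0.564, 0.533 and 0.544, so Mt2 RNA stood at nearly double the Mt1 level. KO replicates 5 and 6 had 0.826 and 0.927, nearer to WT. Mt3 and Mt4, metallothioneins known from brain and stratified epithelium, were listed at 0 in all WT libraries and reached at most 0.06 and 0.1 FPKM in KO.

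Mt2 and Mt1 are neighbours on chromosome 8 of GRCm38 (GENCODE M21), at 94172664 to 94173568 and 94179082 to 94180327, both on the plus strand, with 5513 bases between them. Since the 2 genes shared 1 order across the libraries, the 250 bases before the start that RefSeq (GRCm38.p6) gives each gene are shown, with matches to the core of the metal response element in capitals (TGCACNC or TGCGCNC, N being any base, either strand, overlaps allowed).
Mt2, chr8:94172368-94172617, plus strand: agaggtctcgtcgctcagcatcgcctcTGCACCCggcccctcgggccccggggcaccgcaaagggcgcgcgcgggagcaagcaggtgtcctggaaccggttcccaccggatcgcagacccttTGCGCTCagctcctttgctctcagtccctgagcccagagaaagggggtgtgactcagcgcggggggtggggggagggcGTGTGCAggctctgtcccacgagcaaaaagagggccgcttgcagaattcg
Mt1, chr8:94178839-94179088, plus strand: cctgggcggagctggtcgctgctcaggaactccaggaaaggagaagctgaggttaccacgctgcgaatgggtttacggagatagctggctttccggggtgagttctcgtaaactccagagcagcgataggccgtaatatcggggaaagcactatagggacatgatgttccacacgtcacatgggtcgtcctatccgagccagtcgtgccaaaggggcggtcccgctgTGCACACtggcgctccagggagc
The Mt2 window held 3 matches, the third of them on the minus strand, and the Mt1 window 1. Of 32851 RefSeq windows of this length, 21.4% held at least 1 match and 1.26% at least 3. Of the other 5 genes with windows only Tfrc held matches, 2 that overlap on opposite strands. A match is a run of letters, not a measured site, and the windows end at the annotated start, so elements beyond it are not shown. For Mt2 the window ends at 94172617, before the GENCODE start of 94172664. The counts depend on the start used and do not show that Mt2 has more elements than Mt1. The table held windows for 7 of the 10 genes, not for Slc40a1, Slc11a2 or Slc39a14.

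Ferritin shells mix heavy and light chains in proportions that differ between tissues. The RNA of the 2 chains differed from WT in opposite directions in KO replicates 1 to 4. Fth1 encodes the heavy chain, which oxidises iron as it enters. It was at 609.41, 614.51, 609.81, 612.76, 644.58 and 676.91 FPKM in WT and at 844.02, 791.17, 822.99, 789.54, 666.25 and 657.98 in KO. In FPKM as deposited, the first 4 KO libraries exceeded every WT library and the last 2 lay inside the WT range. Those last 2 were near its upper edge, and their place there depends on scaling. Fth1 rose 1.21-fold in KO, from 628 ± 27.4 to 762 ± 80.1 FPKM (log2 difference 0.27 ± 0.07 SE, limma adjusted p = 0.0037), and was 1.29-fold higher with KO replicates 1 to 4 only (adjusted p = 1e-06). Its call held under each of the 25 alternatives run, with adjusted p from 6.3e-08 to 0.023.

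Ftl1, the light chain that promotes mineralisation of the core, was the most abundant member. Its WT values were 1462.95, 1485.28, 1481.62, 1498.11, 1520.82 and 1521.07 FPKM, and its KO values 1271.6, 1161.1, 1204.89, 1159.89, 1599.43 and 1423.57. In FPKM as deposited, KO replicates 1 to 4 and 6 were below all WT libraries, while KO replicate 5 was above all of them. KO replicate 6 had the lowest FPKM sum of the 12 libraries, so its place against WT depends on scaling. Ftl1 fell 1.15-fold, from 1495 ± 23.1 to 1303 ± 175.3 FPKM (log2 difference -0.21 ± 0.08 SE, limma adjusted p = 0.027), although quantile normalization turned the difference to 0.16 (adjusted p = 0.18). Testing all genes without a filter ended the call (adjusted p = 0.16), and so did an exact rank-sum test (0.094), TPM scaling (0.063) and leaving out any 1 of WT replicates 5 and 6 or KO replicates 2, 3 and 4 (0.050 to 0.063). It held with KO replicates 1 to 4 only (1.25-fold lower, 7.9e-07). Near-identical copies of Ftl1 can share its reads in an unknown way: Ftl1-ps1 was at 18.76 to 22.97 FPKM in WT, 16.42 to 18.05 in the first 4 KO libraries, 25.09 in KO replicate 5 and 22.83 in KO replicate 6. Ftl2-ps was at 13.68 to 16.93, at 11.42 to 11.9, and at 18.46 and 15.92. Gm10252, which overlaps Ftl1 on the other strand, was at 0.68 to 8.19 FPKM over all 12 libraries.

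The ratio of Fth1 to Ftl1 within a library separated the 2 sets of KO libraries with little spread. WT libraries had 0.409 to 0.445, with a mean of 0.420 ± 0.0133. KO replicates 1 to 4 had 0.664, 0.681, 0.683 and 0.681, a mean of 0.677 ± 0.00904. KO replicates 5 and 6, at 0.417 and 0.462, were inside and just above the WT range. The ratio is free of library scaling, and no test was run on it.

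**Figure D2:**
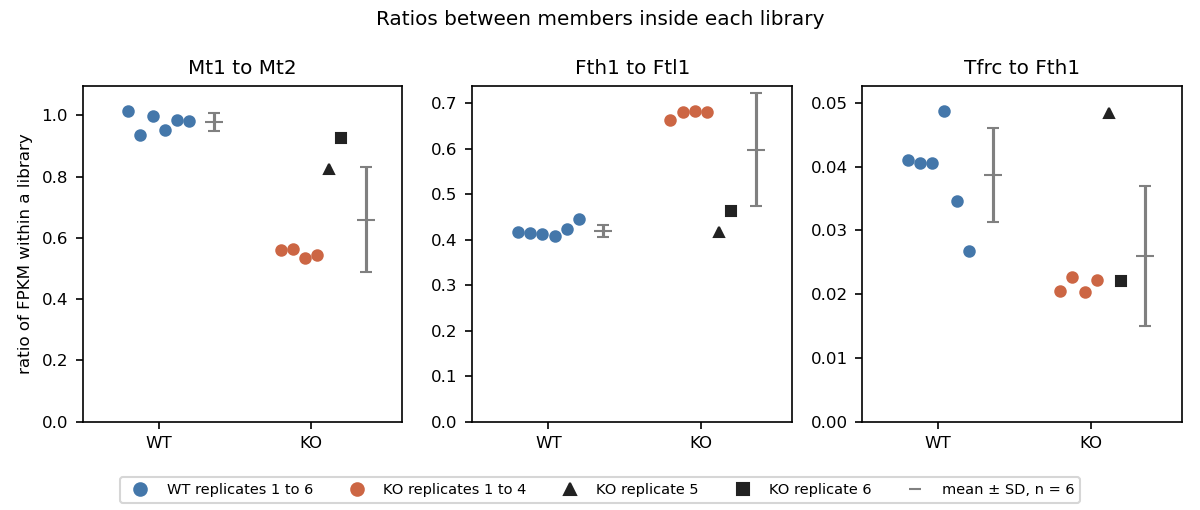
Ratios of FPKM between 2 members inside each library (y axis from 0, no unit) for Mt1 to Mt2, Fth1 to Ftl1 and Tfrc to Fth1, with WT and KO on the x axis and grey marks for the mean ± SD of 6 libraries. KO replicates 1 to 4 form a tight group apart from WT in the first pair of panels, at 0.533 to 0.564 and 0.664 to 0.683, and KO replicates 5 and 6 lie nearer to WT there.

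Tfrc, the receptor for transferrin-bound iron, was lower in FPKM as deposited in 5 of 6 KO libraries than in any WT library, and higher in the sixth. WT replicates 1 to 6 held 25.02, 24.98, 24.73, 29.88, 22.31 and 18.07 FPKM and KO replicates 1 to 6 held 17.33, 18, 16.74, 17.51, 32.24 and 14.52. The groups overlapped through KO replicate 5 alone. The means of 24.2 ± 3.87 FPKM in WT and 19.4 ± 6.41 in KO did not pass the test (log2 difference -0.34 ± 0.16 SE, limma adjusted p = 0.090, 95% interval -0.69 to 0.02). Without KO replicate 5 the difference was -0.49 (adjusted p = 0.0014), and without WT replicate 6, the lowest WT library, it was -0.41 (0.045). It passed at -0.46 with quantile normalization (0.018) and with array weights (0.00013). With KO replicates 1 to 4 only Tfrc was 1.39-fold lower (adjusted p = 0.0016). The ratio of Tfrc to Fth1 was 0.0387 ± 0.00741 in WT, 0.0203 to 0.0228 in KO replicates 1 to 4, 0.0484 in KO replicate 5 and 0.0221 in KO replicate 6. KO replicates 5 and 6, close to each other in Mt1, Mt2 and Fth1, were thus the highest and the lowest library of the 12 in Tfrc.

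**Figure D3:**
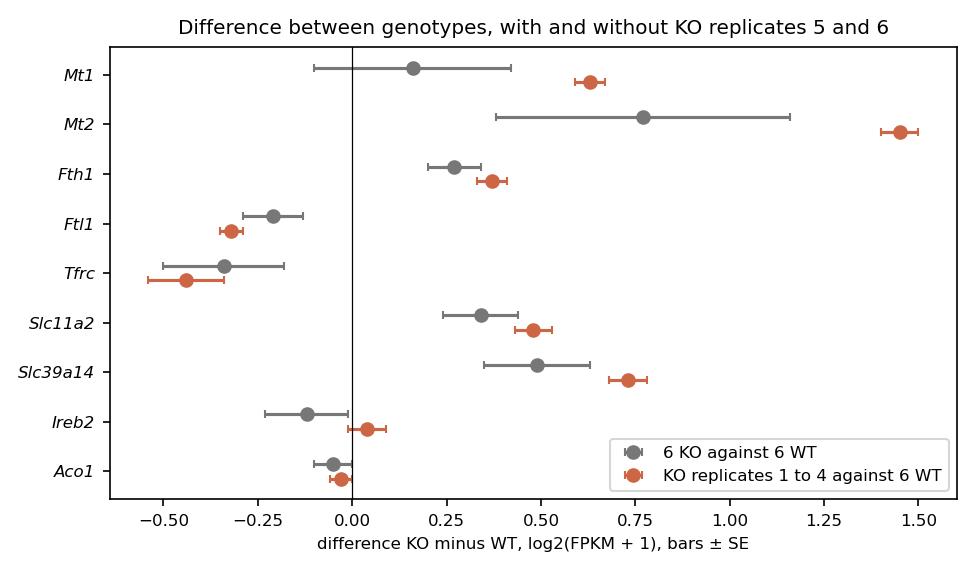
Difference KO minus WT on the log2(FPKM + 1) scale (x axis) for the 9 tested genes (y axis), with bars for ± SE, in grey for 6 KO against 6 WT and in orange for KO replicates 1 to 4 against 6 WT. Without KO replicates 5 and 6 the differences of Mt1 and Mt2 move from 0.16 to 0.63 and from 0.77 to 1.45, and the bars shorten for each gene, while Aco1 and Ireb2 stay near 0; with quantile normalization that of Ftl1 is 0.16 in place of -0.21.

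Fth1, Ftl1, Slc40a1 and Tfrc each held a match to a strict form of the stem-loop that iron regulatory proteins bind. The letters are shown with the untranslated region that holds them. A script searched the GENCODE M21 transcripts (GRCm38) for a C, 5 bases, the loop CAGTGN and 5 bases that pair with the first 5 (A with T, G with C or T). The loop is in capitals, and each line gives 17 bases. Elements that depart from this form are missed, so a member or stretch without a match may still hold an element.
Fth1, 5′ UTR, chr19:9982738-9982754, plus strand: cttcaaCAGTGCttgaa
Ftl1, 5′ UTR, chr7:45459785-45459801, minus strand: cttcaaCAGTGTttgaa
Slc40a1, 5′ UTR, chr1:45925471-45925487, minus strand: cagctaCAGTGTtagct
Tfrc, 3′ UTR, chr16:32631225-32631241, plus strand: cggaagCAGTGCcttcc
Tfrc, 3′ UTR, chr16:32631604-32631620, plus strand: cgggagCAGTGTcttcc
Tfrc, 3′ UTR, chr16:32631669-32631685, plus strand: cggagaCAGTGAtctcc
Tfrc, 3′ UTR, chr16:32631716-32631732, plus strand: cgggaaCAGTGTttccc
Of 22527 genes with coding transcripts, 175 (0.777%) held such a run in an untranslated region. The 5′ elements act on translation, which was not measured. Fth1 and Ftl1, whose 5 stem bases before and after the loop are the same letters, moved in opposite directions at the RNA level in KO replicates 1 to 4, and Ftl1 turned direction with quantile normalization of all 12 libraries.

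The importers Slc39a14 and Slc11a2 rose together in KO. Slc39a14, on chromosome 14 from 70303469 to 70351425, encodes ZIP14, a carrier of zinc, manganese and unbound iron. It was at 13.63, 12.41, 12.7, 12.85, 13.73 and 14.26 FPKM in WT and at 20.59, 23.02, 23.77, 23.3, 13.85 and 13.08 in KO. The first 4 KO libraries stood above all WT libraries, and KO replicates 5 and 6 lay inside the WT range. It rose 1.48-fold, from 13.3 ± 0.716 to 19.6 ± 4.89 FPKM (log2 difference 0.49 ± 0.14 SE, limma adjusted p = 0.0078), and 1.71-fold with KO replicates 1 to 4 only (adjusted p = 2.7e-08).

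Slc11a2, on chromosome 15 from 100387898 to 100425072, encodes DMT1, which carries ferrous iron across the endosomal membrane. WT libraries held 19.46, 18.41, 18.06, 18.47, 19.1 and 22.36 FPKM, and KO libraries 26.29, 27.05, 28.33, 27.6, 22.11 and 18.28. Here too KO replicates 1 to 4 were above the WT range and KO replicates 5 and 6 inside it. Slc11a2 rose 1.29-fold, from 19.3 ± 1.58 to 24.9 ± 3.93 FPKM (0.34 ± 0.10 SE, adjusted p = 0.0090), and 1.41-fold with KO replicates 1 to 4 only (adjusted p = 3.1e-06). The call was lost with quantile normalization (adjusted p = 0.068) and with an exact rank-sum test (0.094). KO replicates 1 to 4 outside the WT range with KO replicates 5 and 6 inside it was the order of Fth1, Slc11a2 and Slc39a14, and of 215 tested genes in all (1.82%).

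Slc40a1, the iron exporter, was close to 0. It was at 0.08, 0.2, 0.15, 0.19, 0.18 and 0.18 FPKM in WT and 0.16, 0.11, 0.09, 0.09, 0.15 and 0.05 in KO, under the level for testing across genes. The ranges overlapped in 5 of 6 KO libraries. The means of 0.163 ± 0.0441 and 0.108 ± 0.0412 FPKM did not differ past 0.05 (exact permutation test over 924 assignments, two-sided, p = 0.0584), and did without WT replicate 1 (exact p = 0.0130), KO replicate 1 (0.0390) or KO replicate 5 (0.0411).

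Neither iron sensor passed the test with all libraries. Aco1, which encodes the enzyme that is either a cytosolic aconitase or iron regulatory protein, was at 13.65, 13.63, 14.4, 13.15, 13.71 and 13.18 FPKM in WT and 13.51, 13.53, 13.19, 13.03, 13.3 and 12.02 in KO. Its difference of -0.05 ± 0.05 SE did not pass (limma adjusted p = 0.33), and the 95% interval of -0.15 to 0.05 bounds its size. Only quantile normalization among the alternatives gave a call (-0.13, adjusted p = 0.018). Ireb2, the second iron regulatory protein, which is broken down when iron is plentiful, was at 7.84 to 9.09 FPKM in WT, 8.52 to 9.57 in the first 4 KO libraries, with 7.12 and 5.18 for KO replicates 5 and 6, both below all WT libraries. Its difference was -0.12 ± 0.11 SE (adjusted p = 0.38, interval -0.36 to 0.12) and turned to 0.04 with KO replicates 1 to 4 only (adjusted p = 0.39).

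Ordered by WT level, Ftl1 (1495 FPKM) and Fth1 (628) stood far above Mt2 (137) and Mt1 (134), whose WT values overlapped. Tfrc (24.2), Slc11a2 (19.3), Aco1 (13.6), Slc39a14 (13.3) and Ireb2 (8.62) followed, with overlap between Tfrc and Slc11a2 and between Aco1 and Slc39a14. Within KO replicates 1 to 4 the coefficient of variation was 5.74% for Mt1, 6.57% for Mt2, 4.38% for Ftl1 and 2.99% for Tfrc, where all 6 KO libraries gave 41.0%, 53.2%, 13.4% and 33.1%.

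Marker genes of other cell types moved with these levels in part. The summed level of 7 fibroblast markers was 541 to 572 FPKM in WT, 974 to 1053 in the first 4 KO libraries, with 425 and 623 for KO replicates 5 and 6, most of it Col1a1 in each library. Within it Col3a1 (0.44 to 0.71 FPKM in WT, 19.57 to 154.74 in KO), Pdgfra (0.86 to 1.49 and 5.09 to 13.43) and Dpt (0 to 0.17 and 7.82 to 19.18) were above WT in each KO library, replicates 5 and 6 included. Dcn and Col1a1 were not. Dcn was at 62.25 to 79.26 FPKM in WT, 131.51 to 151.34 in the first 4 KO libraries, and 26.69 and 22.08 in KO replicates 5 and 6. Col1a1 was at 473.07 to 502.53, 666.86 to 738.65, 364.14 and 561.86. Lum and Thy1 were at most 0.09 and 0.31 FPKM in any library. The sum of 9 macrophage markers was 39.1 to 47.0, 55.7 to 57.2, 46.0 and 41.2, most of it Cd14 in each library. Cd14 was at 36.85 to 44.95 FPKM in WT and inside that range in the first 4 KO libraries (42.13 to 43.94). It was below all WT libraries in KO replicates 5 and 6 (35.77 and 32.79). The smaller parts Cd68 (1.27 to 2.03 FPKM in WT, 5 to 10.96 in KO) and Csf1r (0.58 to 0.83 and 2.45 to 3.37) were above WT in each KO library, as was Lyz2 (0 to 0.23 and 0.53 to 1.89). Ptprc, Adgre1, Itgam, Mrc1 and Tyrobp were at most 0.07 in any library. The sum of 7 epithelial markers was 140 to 148, 51.6 to 59.7, 40.3 and 50.1, nearly all of it Cdh1 and Krt19 in WT and Krt19 in KO. The sum of 8 contractile markers was 124 to 152, 86.4 to 95.9, 155 and 169. The 6 endothelial, 7 erythroid and 3 of 5 hepatocyte markers in the table summed to at most 0.99, 3.16 and 0.09 FPKM in any library. The part of these markers' cells in the results above was not tested.

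The authors' deposited table gives ratios of WT over KO. It lists Mt2 at 0.49 with a q-value of 0.02 and marks it significant, and marks none of the other 9 genes. Among those it lists Fth1 at 0.82, Slc11a2 at 0.77 and Slc39a14 at 0.68, each with a q-value of 0.00 as printed there, Mt1 at 0.81 with a q-value of 0.46, and Ftl1 at 1.15 with a q-value of 0.06. The authors' mark for Mt2 rests on 6 KO values of which 2 are below WT.

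Genes whose deviations from the genotype means ran most like those of a member were found by Pearson's r of log2(FPKM + 1) over 12 libraries, given as a description, since the libraries share KO replicates 5 and 6 as extremes. For Mt1 they were Mt2 (r = 0.997), the calcification inhibitor Mgp (0.997), the siderophore-binding lipocalin Lcn2 (0.996), the aldehyde dehydrogenase Aldh3a1 (0.995) and Cthrc1 (0.995). Without KO replicates 5 and 6 the same 5 had r = 0.87, 0.70, 0.63, 0.85 and 0.49. Their genotype differences were not alike: Mgp and Lcn2 averaged 190 and 239 FPKM in WT against 134 and 57.8 in KO replicates 1 to 4, where Mt1 was higher. For Tfrc they were Ivns1abp (0.981), the leucyl-tRNA synthetase Lars (0.975), Emp1 (0.975), Rbbp7 (0.975) and the disulfide isomerase Pdia6 (0.973), with r = 0.91 to 0.94 without those libraries. For Fth1 they were Pld3 (0.985), the proton pump subunit Atp6v0d1 (0.985), Gstm2 (0.984), Zfyve1 (0.984) and St3gal4 (0.980), with 0.91 to 0.95.

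Other genes of iron uptake, release and systemic control moved in both directions. Of 22 symbols listed 20 were in the table and 11 were tested: 5 rose and 4 fell (81.8% called, beside 63.5% of all genes tested), a median difference of 0.16 beside 0.01 over all genes tested. Trf, transferrin itself, rose 8.54-fold, from 2.14 ± 0.190 to 18.3 ± 8.85 FPKM (limma adjusted p = 1.5e-05). Its KO replicates 1 to 4 held 23.63 to 24.61 FPKM, and KO replicates 5 and 6 held 6.56 and 7.22. Steap1, of the STEAP family of metalloreductases, rose 3.54-fold to 65.1 ± 10.6 FPKM (3.5e-09), Steap2 1.70-fold (9.2e-05) and Steap3, the endosomal ferrireductase, 1.66-fold (0.00015), and Lrp1, an endocytic receptor, 1.41-fold (0.0070, lost with an exact rank-sum test). The 6 KO values of Steap1, Steap2 and Steap3 were all above WT, where 46.4% of all genes tested had no overlap in either direction.

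Among those that fell, Lcn2 went from 239 ± 19.4 to 41.4 ± 25.7 FPKM (5.77-fold, adjusted p = 0.00017), lowest in KO replicates 5 and 6 at 8.3 and 8.67 against 53.6 to 62.89 in the other KO libraries, and its receptor gene Slc22a17 fell 3.10-fold (2.6e-06). Cp, the ferroxidase ceruloplasmin that works with the exporter, fell 2.09-fold from 88.1 ± 2.97 FPKM (0.0044), and Hfe, which binds the transferrin receptor, 1.51-fold (0.0085). Each KO library was below every WT library for Lcn2, Slc22a17 and Cp, again beside 46.4% of all genes tested without overlap. Steap4 and Scara5, a ferritin receptor, did not pass with all libraries (adjusted p = 0.80 and 0.70). Steap4 was at 23.54 to 29.24 FPKM in WT, 53.38 to 58.84 in the first 4 KO libraries, with 8.31 and 7.05 for KO replicates 5 and 6, the order seen for Mt1 and Mt2. Scara5 was at 6.08 to 8.79, 9.79 to 11.84, 1.17 and 1.67, again in that order. With KO replicates 1 to 4 only all 11 were called, 7 higher and 4 lower, where 77.1% of all genes were.

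For ferritin loading, turnover and iron sensing, 6 of 7 genes in the table were tested. Pcbp2, an iron chaperone, rose 1.17-fold (limma adjusted p = 0.0018, lost with quantile normalization). Pcbp1, the chaperone that hands iron to ferritin, fell 1.14-fold (0.0014), Ncoa4, the receptor that takes ferritin to the lysosome, 1.40-fold from 10.7 ± 0.578 to 7.66 ± 1.61 FPKM (0.0040), and Herc2, a ubiquitin ligase of Ncoa4, 1.21-fold (0.018, lost with the replicate number as a block). Fbxl5, the iron-sensing ligase subunit that targets Ireb2 protein, was at 4.25 ± 0.253 and 3.63 ± 0.711 FPKM and did not pass (0.11). The median difference was -0.19.

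Mitochondrial iron import and iron-sulfur cluster assembly had 30 tested genes, of which 9 rose, 7 fell and 14 did not pass (53.3% called, beside 63.5% of all genes tested), with a median of 0.10. Iscu, the scaffold on which clusters are built, rose 2.30-fold from 7.77 ± 0.362 to 17.9 ± 2.01 FPKM (limma adjusted p = 1.5e-08), Cisd1, the outer membrane cluster protein mitoNEET, 2.06-fold to 32.3 ± 3.13 (9.3e-08), and Isca1, a late-acting assembly factor, 2.13-fold (1.1e-05). Fdxr, the reductase that feeds electrons to assembly, fell 1.65-fold from 8.17 ± 0.431 FPKM (2.9e-06), Isca2 1.28-fold (7.9e-05) and Cisd3 1.32-fold (8.2e-05). In these 6 genes, named for the smallest p in each direction, the KO libraries did not overlap the WT libraries. Over all genes tested, 46.4% showed no overlap.

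Haem genes had 19 tested members, of which 8 rose, 6 fell and 5 did not pass, among them Uros, Urod, Cpox and Abcb6 (73.7% called, beside 63.5% of all genes tested, median 0.14). Hmox1, the inducible haem oxygenase that frees iron from haem, rose 3.66-fold, from 65.2 ± 1.73 to 239 ± 45.3 FPKM (limma adjusted p = 3.8e-09). Its first 4 KO libraries had 201.46 to 221.83 FPKM, KO replicate 5 had 305.2 and KO replicate 6 had 286.37. Here KO replicates 5 and 6 lay farther from WT than the other KO libraries, unlike in Fth1. Pgrmc1, a haem-binding membrane protein, rose 2.82-fold to 125 ± 19.0 FPKM (3.6e-09), and Alas1, the first enzyme of haem synthesis, 1.99-fold to 11.3 ± 1.54 (3.1e-07). Abcb10, a mitochondrial transporter, fell 1.62-fold (2.4e-06), Fech, ferrochelatase, which inserts the iron, 1.36-fold (0.00011) and Ppox, the enzyme before it, 1.26-fold (0.00048).

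Zinc transporters with the other metallothioneins and Mtf1 had 16 tested genes, of which 6 rose, Slc30a6 fell and 9 did not pass (43.8% called, beside 63.5% of all genes tested, median 0.16). With KO replicates 1 to 4 only 12 were higher and 2 (Slc30a4 and Slc30a6) lower, where 39.9% of all genes were higher and 37.1% lower, and without KO replicate 6 alone 13 were called in all. Slc39a4, a zinc importer, went from 0.123 ± 0.0367 to 2.11 ± 0.280 FPKM in KO, with 0.06 to 0.15 in WT, and passed the level for testing through its KO libraries alone, so its place among the 6 was conditioned on that difference. Slc39a6 rose 1.40-fold (limma adjusted p = 1.5e-06) and Slc30a5 from 5.77 to 7.52 FPKM (0.0047, lost with an exact rank-sum test). Slc30a6, which works with Slc30a5 in loading the secretory pathway, fell 1.42-fold (0.00045). Mtf1 rose 1.22-fold to 2.14 ± 0.308 FPKM (0.024) and was at 1.75 to 2.21 in the first 4 KO libraries, with 2.36 and 2.6 for KO replicates 5 and 6, not the order of Mt1 and Mt2. Its call was lost with KO replicates 1 to 4 only (adjusted p = 0.058), without WT replicate 3, with quantile normalization and with no filter on low values. Slc30a1, a zinc exporter known as an Mtf1 target, did not pass with all libraries (0.21) and was at 1.58 to 2.11 FPKM in WT, 2.35 to 2.62 in the first 4 KO libraries, with 1.65 and 1.39 for KO replicates 5 and 6. Mtf1 and Slc30a1 were chosen for these sentences after their values were seen.

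Copper genes had 9 tested members: 3 rose, Cox17 and Slc31a2 fell and Slc31a1, Atp7a, Commd1 and Sco1 did not pass (55.6% called, beside 63.5% of all genes tested, median 0.19). Sco2, a cytochrome oxidase assembly factor, rose 1.76-fold (limma adjusted p = 5.4e-06), Atox1, the copper chaperone to the secretory pathway, from 66.9 ± 4.16 to 107 ± 12.5 FPKM (3.7e-06) and Ccs, the chaperone of superoxide dismutase, 1.21-fold (0.0046, lost with quantile normalization). Cox17, the mitochondrial copper chaperone, fell 1.41-fold (0.00012) and Slc31a2 1.47-fold (0.0056).

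**Figure D4:**
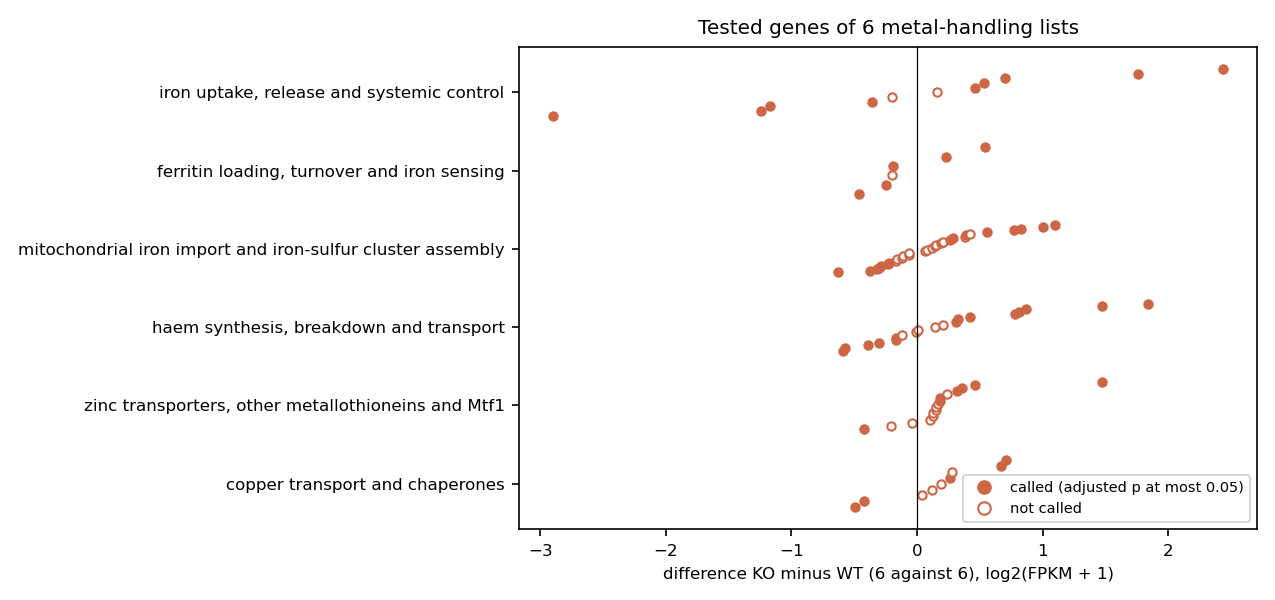
Difference KO minus WT (6 against 6) on the log2(FPKM + 1) scale for each tested gene of 6 lists, 1 row per list, filled where the adjusted p was at most 0.05. The differences lie on both sides of 0 in each list, with Trf at 2.44 as the highest point and Lcn2 at -2.90 as the lowest.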

How the data were processed

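The deposited table holds FPKM per gene made by the authors, to 2 decimals. Per the file headers it also has the authors' ratio of WT over KO, the log2 of that ratio, and p-value and q-value columns. Among tools, StringTie 1.3.4d, HISAT2 2.0.4, cutadapt 1.9, edgeR and DESeq2 are in the submitters' processing notes, with mm9 as the build and no roles. The test behind the authors' p-values and any use of strand in counting are not given in the sources used here. An FPKM value depends on what the rest of its library holds, and depth in reads is unknown. The positions printed belong to GRCm38 and not to mm9.

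Libraries were grouped by the genotype in their titles. Genes that reached 1 FPKM in 6 or more of 12 libraries were compared with limma 3.58.1 in R 4.3.3 on log2(FPKM + 1), a pseudocount that understates changes of low genes, with a variance trend and no covariate, Benjamini-Hochberg adjusted, two-sided. Folds are ratios of mean FPKM. A gene under that level had an exact permutation test. Fits were tested on simulated data, where 72% of genes changed by 0.5 in log2 were called and 96% of those changed by 1. The smallest size simulated was 0.5, so calls of smaller differences were not gauged. The members, the lists and the tests were chosen with earlier results of these data known. Some genes that the naming rule gives are not reported here. Named genes are the members, Cth, up to 3 called genes per list and direction with the smallest p, those that complete counts of 5 or fewer, and the 5 genes closest to Mt1, Tfrc and Fth1. The ferritin copies, Mtf1, Slc30a1, Fbxl5 and the markers were named after their values were seen. Alternatives covered pseudocount, filter, scaling, variance model, array weights, a rank-sum test, a replicate block and libraries left out.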

Additional observations from a re-analysis of the deposited data

Results flagged for a closer look

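In 26 sets of 6 libraries (the 10 genes and 3 ratios, per genotype), the highest or lowest library was compared with its nearest neighbour over the range of the set, and 4 exceeded Dixon's 95% critical value, where chance gives about 1 in 20. Tfrc in KO replicate 5, at 32.24 FPKM, stood above the other KO libraries by 0.804 of the range. The ratio of Tfrc to Fth1 in the same library, at 0.0484, did so by 0.914. Slc11a2 in WT replicate 6, at 22.36 FPKM, was high by 0.674 of the WT range, and Aco1 in KO replicate 6, at 12.02 FPKM, was low by 0.669 of the KO range. WT replicate 6 had the highest FPKM sum of all libraries and KO replicate 6 the lowest. The flags of Slc11a2 and Aco1 can therefore change with scaling, which was not tested. The joint split of KO replicates 5 and 6 from the other KO libraries, seen in Mt1, Mt2, Fth1, Ftl1, Slc11a2, Slc39a14 and Ireb2, cannot be found by this measure, which looks at 1 library at a time.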

How the results depend on the processing

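The count of called members was 4 with all libraries, 7 with array weights and 7 with KO replicates 1 to 4 only, 2 with an exact rank-sum test, and 3 to 6 with 1 library left out. The count of genes called, 7515, was 4775 with a minimum of 5 FPKM in at least 6 libraries, where fewer genes were tested, 10031 with no filter, where more were, 9333 with array weights, 7075 with the rank-sum test, 9119 with KO replicates 1 to 4 only, and 7121 to 8105 with 1 library left out. For the 6 other lists the alternatives were added after seeing the data. Among zinc genes 7 were called with all libraries, 14 with KO replicates 1 to 4 only, 14 with array weights, 4 with the minimum of 5 FPKM, and 5 to 13 with 1 library left out, while with 1 left out the other lists had 9 (iron uptake), 5 (ferritin loading), 14 to 19 (mitochondrial iron), 12 to 14 (haem) and 5 to 7 (copper). Ftl1 reversed to 0.16 with quantile normalization, and Ireb2 to 0.06 with array weights and 0.04 with KO replicates 1 to 4 only; the cause was not tested. Fth1 and Slc39a14 kept their call in all 25 alternatives run. The labels do not say whether libraries of the same number belong together. No pairing by number was seen: same-numbered libraries had correlations of -0.06 to -0.27 in their deviations, and 0 of 12 correlated best with its own number. With the replicate number as a block 6959 genes and the same 4 members were called. The sum of all rows of a symbol changed no ratio, since each symbol stands on 1 row. Unknown depth limits what can be said of Slc40a1.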
